A study of Mesocricetus auratus with 8 samples.

Results

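Among the genes measured in Syrian hamster satellite cells (SCs), 100 genes were taken whose RNA was most consistently higher after 24 h at 4°C. For each gene, the expected read count of each library was scaled to a library total of 1000000 (CPM), 0.5 CPM was added, and the log2 ratio of the cold library to the control library of the same number was taken for the 4 numbers. The smallest of the 4 ratios served as the score, so that a gene stood high only if it was higher in every pair, and the 100 genes with the highest score were kept. Genes with under 50 counts in any of the 8 libraries and genes named only by a LOC number were left out. The 100 genes were drawn from 10481 genes with 50 or more counts in every library, of which 9772 carried a name other than a LOC number, out of 17590 genes with values. All 100 were protein-coding in the RefSeq table of hamster genes.

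The libraries came from SCs of skeletal muscle of wild-type, sexually mature male Syrian hamsters (Slc:Syrian), a species that hibernates, grown in growth medium and then in the same medium with HEPES. Control libraries (n = 4) were collected on day 3 of culture at 37°C, before any cold (0 h). Cold libraries (n = 4) were collected on day 4, after 24 h at 4°C without change of medium. The sample labels also give 3, 4, 5 and 6 days at 37°C for controls 1 to 4, in conflict with their titles, which place all of them on day 3. Since no library kept at 37°C to day 4 was analysed here, cold and the additional 24 h cannot be told apart. The study describes the libraries of a group as biological replicates, and neither it nor the labels say whether they came from separate animals or from separate cultures, so p-values measure the spread between these libraries.

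Satellite cells are the stem cells of skeletal muscle. In growth medium they divide as myoblasts, and on leaving the cell cycle they build the sarcomeres of muscle fibres. Cooling slows transcription, RNA decay and protein synthesis together, so the amount of an mRNA in a chilled cell depends on how far each of these is slowed. Because the values are shares of all RNA in a library, a gene can also stand higher when other RNAs are lower, and in bulk libraries fewer cells of a type and less RNA per cell cannot be told apart.

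Depth was 16530747 to 18533801 expected counts per library. All 12 markers of satellite cells and myoblasts were measured, with a summed level of 2278 to 2672 TPM, a share of 1000000 corrected for transcript length, in controls and 2173 to 2508 TPM after cold, lower in the cold library of every pair. Of 12 fibroblast markers, 10 were measured, at 1312 to 1863 TPM in controls and 1292 to 1801 TPM after cold. The 12 markers of endothelial, immune, Schwann, fat and smooth muscle cells summed to 31.8 to 62.4 TPM and 31.7 to 62.6 TPM. None of these 12 was at 0 in every library, and 7 of them, such as Adipoq, Kdr, Pecam1, Ptprc and Sox10, stayed under 1 TPM throughout. The part of other cell types in the differences given here was not tested.

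The differences were small. The score ran from 0.27 for Znf628 down to 0.11 for Snrpd3, a gene 7.73% higher in its least changed pair. The mean of the 4 log2 ratios had a median of 0.20 over the 100 genes, which is 15.1% more RNA, against 0.01 over all 10481 genes. It ran from 0.12, or 8.84% more, to 0.55, or 46.6% more, the latter in Ier2, and 9 genes reached 0.3. The largest single ratio, that of Ier2 in pair 2, was 0.85 or 1.80-fold, and no pair of any of the 100 genes reached a log2 ratio of 1. The medians of the 100 genes in pairs 1 to 4 were 0.21, 0.19, 0.17 and 0.18, beside 0.02, 0.02, 0.01 and −0.00146 over all genes. The smallest ratio of a gene fell in pair 3 for 37 genes and in each of the other pairs for 21. These values chose the genes and are given as a description, without a test.

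**Figure D1:**
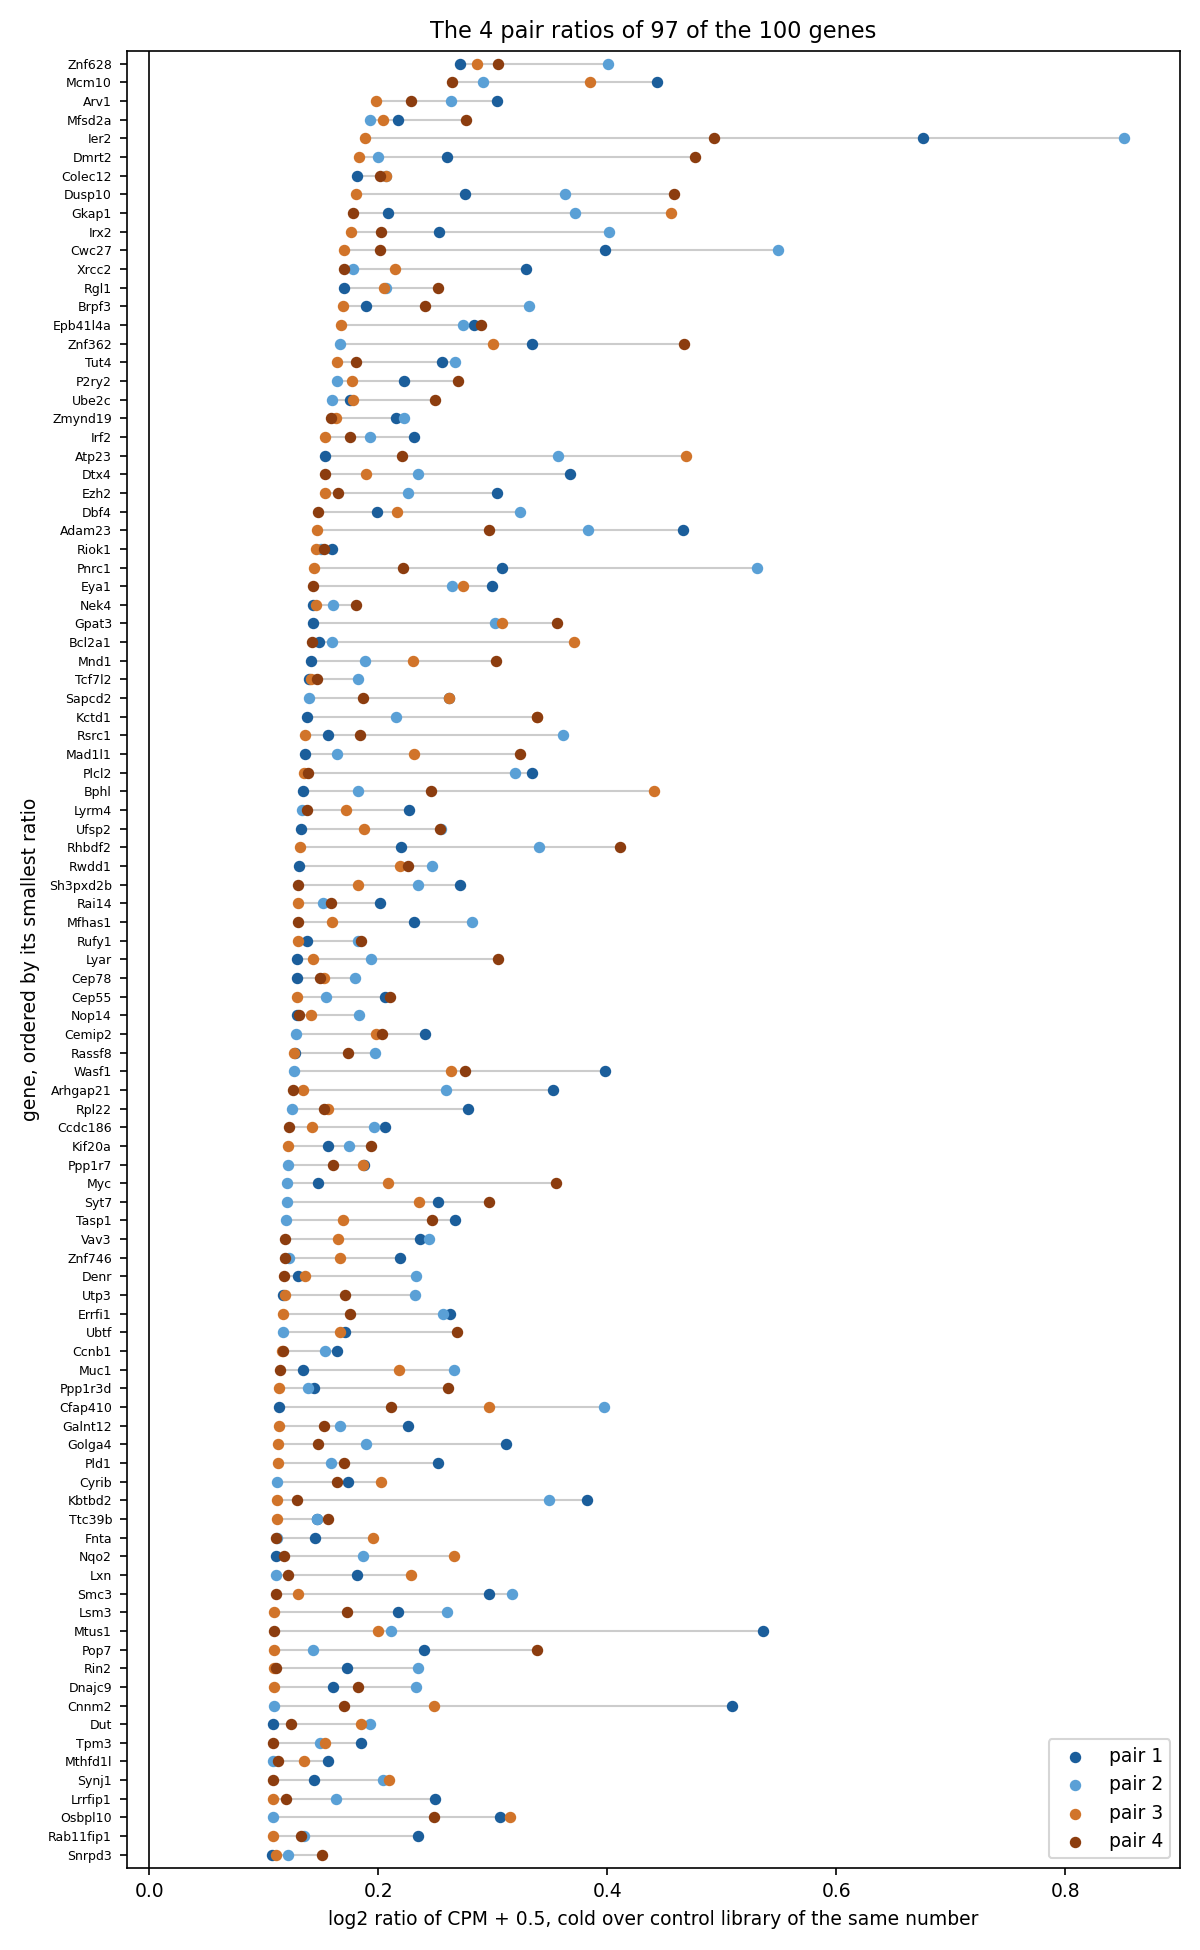
The 4 pair ratios of 97 of the 100 genes. Each row is a gene, ordered by its smallest ratio, each point is the log2 ratio of CPM + 0.5 of the cold over the control library of one number (linear axis, log2 units), and the line joins the smallest to the largest. All points lie right of 0, most between 0.1 and 0.3, and those of Ier2 reach 0.85.

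Counting error alone was of the same order as the differences. The median counting error of a ratio, taken from the 2 counts behind it, was 0.10 on the log2 scale for the 100 genes and 0.08 for all 10481. In 36 of the 100 genes each of the 4 ratios exceeded 1.96 times its counting error, as in 1.01% of all genes. The rule chose genes for high ratios, so nothing is read from this difference. Depth divided them: 30 of the 31 genes with at least 1000 counts in every library passed in all 4 pairs, and 0 of the 12 genes whose lowest count was under 100. Since the counting error grows as counts fall, this division largely follows from how the error is computed. Reads carried no molecular identifiers, so these intervals cover counting error only. Across the 4 pairs, the standard deviation (SD) of a gene's ratios had a median of 0.06 in the 100 genes and 0.10 in all genes, a spread that the rule itself kept narrow.

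**Figure D2:**
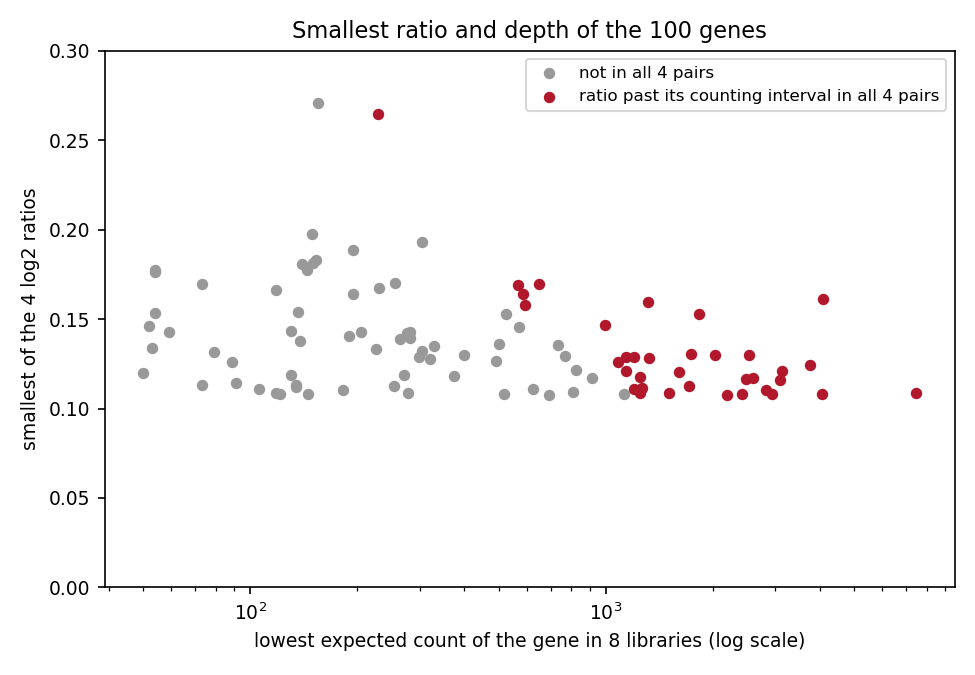
Smallest ratio against depth for the 100 genes. The x axis is the lowest expected count of the gene in the 8 libraries (log scale), the y axis its smallest log2 ratio (linear scale), and red points are the 36 genes whose ratio exceeded 1.96 times its counting error in all 4 pairs. The red points gather on the right, with Mcm10 as the high one on the left.

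Ratios above 0 in all 4 pairs were found in 1546 of the 10481 genes (14.8%), and ratios below 0 in all 4 pairs in 1275 (12.2%). Groups that did not overlap were rarer. In 39 of the 100 genes the lowest cold CPM was above the highest control CPM, as in 2.48% of all genes. The rule chose genes that were higher in every pair, which favours such separation, so nothing is read from this difference. In the other 61 genes the ranges of cold and control libraries overlapped, although each cold library stood above the control of its own number.

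The 100 genes were sorted into groups by main role. Roles were assigned to these 100 only, so no share over all genes can be set beside the size of a group. Nothing is read from these sizes. Genes of cell division and DNA replication made up 15 of the 100, with a median of 14.1% more RNA after cold. Mcm10, which helps to start the replicative helicase, had the second highest score. Its CPM was 13.4, 17.0, 15.5 and 15.5 in control libraries 1 to 4 and 18.5, 20.9, 20.5 and 18.7 in cold libraries 1 to 4. All 4 cold libraries stood above every control, with a mean of 15.4 ± 1.46 CPM (SD, n = 4) in control and 19.6 ± 1.24 CPM (SD, n = 4) in cold. Dbf4 encodes the activating subunit of the Cdc7 kinase, which fires replication origins. It stood at 60.4, 56.2, 60.9 and 63.0 CPM in control and at 69.4, 70.4, 70.8 and 69.8 CPM in cold libraries, so that the cold libraries lay close together (SD 0.641 CPM, n = 4) and above every control.

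Further genes of this group act in mitosis and cytokinesis and are on the list of G2 and M phase genes. Ube2c, the ubiquitin-conjugating enzyme of the anaphase-promoting complex, had 79.3, 80.4, 80.5 and 72.8 CPM in control and 89.6, 89.8, 91.1 and 86.6 CPM in cold libraries. Ccnb1, cyclin B1, had 183, 192, 191 and 187 CPM in control and 205, 214, 207 and 203 CPM in cold libraries. Kif20a, a kinesin of the central spindle, had 185, 182, 202 and 192 CPM in control and 206, 206, 220 and 219 CPM in cold libraries. In each of these genes the cold libraries were above all controls, and the mean difference was 14.1%, 10.0% and 11.8% respectively. Ccnb1 and Ube2c, at 233 and 223 TPM over the 8 libraries, and Dut, a dUTPase that keeps uracil out of DNA, at 143 TPM, were also among the 10 most abundant of the 100 genes. Dut was also the one gene of the 100 (4.04% of all genes) with a count more than 1e-06 from a whole number in at least one library.

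Xrcc2, a gene of homologous recombination and one of the 20 highest scores, had 4.54, 4.61, 5.08 and 4.03 CPM in control and 5.83, 5.28, 5.97 and 4.60 CPM in cold libraries. Its groups overlapped, and it rested on counts as low as 73 in a library. The rest of this group was named here after its values were seen, to account for every gene. Smc3, a core subunit of cohesin, had 166, 172, 202 and 199 CPM in control and 204, 214, 221 and 215 CPM in cold libraries. Its ratios were larger in pairs 1 and 2 (0.30 and 0.32) than in pairs 3 and 4 (0.13 and 0.11). Mnd1, a recombination factor best known from meiosis, was 16.1% higher, Mad1l1 of the spindle checkpoint 16.0% higher, and Cep55 of cell abscission 12.9% higher. The remaining genes were Nek4, Sapcd2, Cep78 and the histone chaperone Dnajc9, between 11.2% and 15.8% higher on average.

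The other genes of the lists were examined beside them. Of 27 G2 and M phase genes with enough counts, 17 had all 4 ratios above 0 and none had all 4 below 0, beside 14.8% and 12.2% of all genes, and the median ratio was 0.13. All 27 had a mean ratio above 0. Ccnb1, Kif20a and Ube2c are part of these counts and were chosen by the rule for such ratios. The medians by pair were 0.19, 0.20, 0.05 and 0.04, so the difference was mostly in pairs 1 and 2. Of 31 G1 and S phase genes, 14 had all 4 ratios above 0 and 2 had all 4 below 0, with a median of 0.09 and no member among the 100. Pcna, the sliding clamp of DNA polymerase, came closest, with mean levels of 295 TPM (control) and 329 TPM (cold) and a smallest ratio of 0.10. In lists drawn up after the 100 genes were known, all 4 ratios were above 0 in 11 of 22 genes of origin firing and in 7 of 16 genes of homologous recombination. Such counts, in these lists and in those below, include any listed genes that are among the 100, which are no independent part of them.

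Tests over all genes put these lists in context. In edgeR's quasi-likelihood fit without a block, 0 of 12506 genes passed an adjusted p of 0.05 in the higher direction (0%), and 9 genes passed in the lower direction (0.072%). At an unadjusted p under 0.05, 322 genes were higher (2.57%), 53 of them among the 100, and DESeq2 called 3 genes higher, all 3 among the 100 (Dbf4, Kif20a and Tpm3). When the number of the library entered the model as a block, 158 genes were called higher by edgeR (1.26%), of which 49 were among the 100, and 509 lower (4.07%), 101 of them past the fold threshold of the study (0.808%). At an unadjusted p under 0.05 this fit held 1061 higher genes (8.48%), among them 93 of the 100. In no fit did any of the 100 pass that threshold, a log2 fold change of 1. The rule used the same ratios, so these counts describe the 100 genes and are not evidence about them. The fit with the block treats the 4 numbers as separate pairs. Libraries 1 and 2 resembled each other, as did 3 and 4, so p-values of this fit, here and below, may be too small. In the fit with the block, 8 of 27 G2 and M phase genes rose and none fell (Bub1b, Ccnb1, Cenpe, Kif20a, Kif20b, Mki67, Prc1 and Ube2c), while 5 of 31 G1 and S phase genes rose (Cdk6, Mcm5, Mcm6, Pcna and Rrm1) and 2 fell. Here and in the lists that follow, called genes that are among the 100 were chosen for such ratios and are no independent part of the count.

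Transcription factors and chromatin genes made up 16 of the 100, with a median of 18.0% more RNA. Ier2, an immediate early gene that growth factors and stress switch on within minutes, showed the largest mean difference. Its CPM was 12.4, 13.8, 12.9 and 10.7 in control and 20.1, 25.3, 14.8 and 15.3 in cold libraries, and the groups did not overlap. Pairs differed widely, with log2 ratios of 0.68, 0.85, 0.19 and 0.49. Myc, a transcription factor that drives growth and ribosome production, is the other immediate early gene of the 100. It had 94.6, 93.5, 103 and 100 CPM in control and 105, 102, 119 and 128 CPM in cold libraries, the lowest cold library being below the highest control. Its ratios were largest in pairs 3 and 4 (0.21 and 0.36), the reverse of Ier2.

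Of 15 immediate early genes with enough counts, 4 had all 4 ratios above 0 and none had all 4 below 0, beside 14.8% and 12.2% of all genes. In edgeR's fit with the block, 5 of the 22 tested were called higher (Egr1, Fos, Ier2, Ier3 and Myc), beside 1.26% of all genes, and without the block none of the 5 was, with adjusted p of 0.445 for Ier2, 0.70 for Ier3 and 0.503 for Myc. Fos and Egr1, transcription factors of the same early response, had far larger folds than any of the 100 genes but are not among them. Fos was under 50 counts in at least one library, and its log2 ratios in pairs 1 to 4 were 1.89, 2.86, 0.41 and 0.54. Egr1 had ratios of 2.50, 3.54, −0.14 and −0.07, so that its difference was confined to pairs 1 and 2. The edgeR adjusted p of Fos was 1.09e-05 with the block and 0.576 without it, and that of Egr1 was 2.13e-04 with the block and 0.630 without it.

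Znf628, a zinc finger gene, had the highest score of all. It stood at 9.84, 9.46, 10.5 and 8.57 CPM in control and at 12.0, 12.6, 12.9 and 10.7 CPM in cold libraries, the groups being apart, but its counts fell to 155 in a library and its ratio did not exceed 1.96 counting errors in every pair. Znf362 and Znf746 were the other zinc finger genes, 24.6% and 11.5% higher on average. Among all 157 genes of the Zfp and Znf prefixes with enough counts, 16 had all 4 ratios above 0 and 16 all 4 below 0, with a median of 0.01. These counts stand beside 14.8% and 12.2% of all genes, and nothing is read from them.

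Ezh2, the methyltransferase of Polycomb repressive complex 2 that silences genes through histone H3, had 107, 110, 111 and 119 CPM in control and 133, 129, 123 and 134 CPM in cold libraries. The cold libraries were above all controls. Of 33 genes of the Kmt, Kdm, Setd and Ezh prefixes, 3 had all 4 ratios above 0 and 2 all 4 below 0, beside 14.8% and 12.2% of all genes. Dmrt2 and Irx2, transcription factors with a DM domain and a homeodomain, were among the 20 highest scores. Dmrt2 had 12.7, 12.4, 10.8 and 8.46 CPM in control and 15.3, 14.4, 12.3 and 12.0 CPM in cold libraries. Irx2 had 5.13, 4.45, 4.42 and 2.98 CPM in control and 6.20, 6.03, 5.06 and 3.51 CPM in cold libraries, with as few as 54 counts. For both, the groups overlapped. Brpf3, a scaffold of a histone acetyltransferase complex, had 33.4, 32.3, 34.5 and 35.3 CPM in control and 38.1, 40.8, 38.8 and 41.8 CPM in cold libraries, with every cold library above every control. Tcf7l2, an effector of Wnt signalling, was 11.1% higher on average, and of 18 Wnt pathway genes it was the one among the 100.

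The remaining genes of this group, named after their values were seen, were Zmynd19, Irf2, Pnrc1, Eya1, Kctd1 and Tasp1. Eya1 is a co-activator of homeodomain transcription factors in muscle precursors, and Irf2 a regulator of interferon genes. Pnrc1, a nuclear receptor co-activator, differed most, by 23.2% on average, with pairs between 1.10-fold and 1.44-fold.

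**Figure D3:**
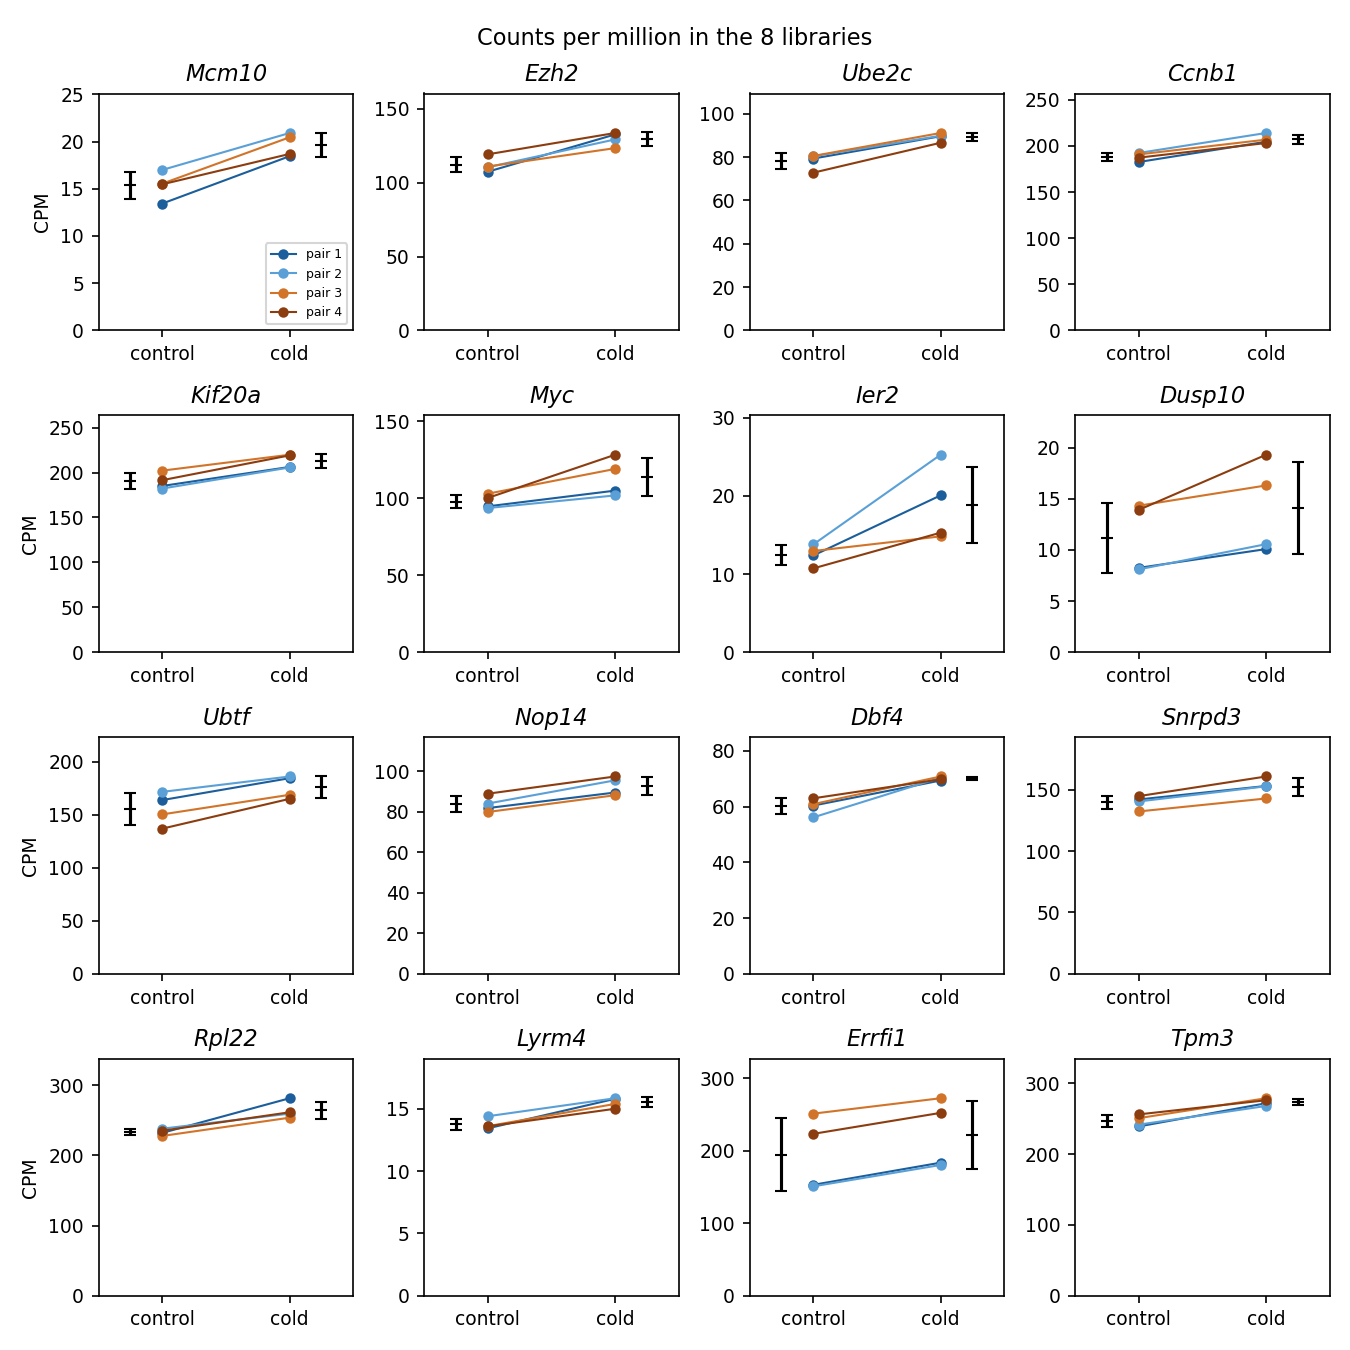
Level of 16 of the 100 genes in the 8 libraries. Each panel is a gene, the y axis is CPM from 0 (linear), coloured points are libraries joined by number, and black marks beside them are the mean and SD of the 4 libraries of each group. All 64 lines go up; the groups stand apart in Mcm10, Ezh2, Ube2c, Ccnb1, Kif20a, Ier2, Dbf4, Rpl22, Lyrm4 and Tpm3, while in Errfi1 and Dusp10 pairs 3 and 4 lie far above pairs 1 and 2 in both groups.

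Genes of ribosome assembly and translation made up 8 of the 100, with a median of 12.4% more RNA. Rpl22, a protein of the large ribosomal subunit, had 232, 238, 228 and 235 CPM in control and 281, 259, 254 and 261 CPM in cold libraries, all cold libraries above all controls. It was the one gene of 86 cytosolic ribosomal proteins among the 100. Of these 86, 12 had all 4 ratios above 0 and 4 all 4 below 0, beside 14.8% and 12.2% of all genes, with a median ratio of 0.02. In the fit with the block 3 were called higher (Rpl22, Rpl29 and Rpl9) and 1 lower, beside 1.26% and 4.07% of all genes, and without the block 0 were called. Denr, a factor for re-initiation of translation and one of the 10 most abundant genes at 156 TPM, had 84.2, 80.6, 75.6 and 81.7 CPM in control and 92.2, 94.8, 83.1 and 88.7 CPM in cold libraries, and its groups overlapped.

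The other 6 genes of this group act in the nucleolus or on ribosomal RNA and were named after their values were seen. Ubtf, which opens ribosomal DNA for RNA polymerase I, had 164, 172, 150 and 137 CPM in control and 185, 186, 169 and 165 CPM in cold libraries. Nop14, of the small subunit processome, had 81.8, 84.0, 79.9 and 88.9 CPM in control and 89.5, 95.5, 88.1 and 97.4 CPM in cold libraries. In both genes the lowest cold libraries were below the highest control. Riok1, a kinase of late 40S maturation, had the most even ratios of the 100 genes, 0.16, 0.15, 0.15 and 0.15. Utp3, Lyar and Pop7, the last a subunit of RNase P and RNase MRP, were 11.7%, 14.3% and 15.5% higher on average. In a list of 50 genes of small subunit processing drawn up after the 100 were known, 22 had all 4 ratios above 0 and 2 all 4 below 0, beside 14.8% and 12.2% of all genes, with a median of 0.07.

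Splicing and RNA processing gave 6 genes, among them the most abundant of the 100. Snrpd3, an Sm protein of the spliceosomal snRNPs, was at 492 TPM over the 8 libraries. It had 142, 140, 132 and 145 CPM in control and 153, 153, 143 and 161 CPM in cold libraries, and was the last gene within the rule. Its cold and control ranges overlapped, while each ratio exceeded 1.96 times its counting error. Lsm3, of the LSm ring that binds U6 snRNA, was at 163 TPM and 14.0% higher on average. Cwc27, a spliceosomal peptidyl-prolyl isomerase, had 16.0, 14.4, 19.3 and 18.7 CPM in control and 21.2, 21.3, 21.8 and 21.6 CPM in cold libraries. Its control libraries were spread and its cold libraries even, so the ratios ran from 1.13-fold in pair 3 to 1.46-fold in pair 2. Tut4, a terminal uridylyltransferase, had 34.4, 34.0, 39.3 and 38.9 CPM in control and 41.1, 41.1, 44.1 and 44.2 CPM in cold libraries, without overlap. Rsrc1, named after its values were seen, was 15.6% higher.

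Signalling gave 17 genes with a median of 15.3% more RNA. Dusp10, a phosphatase of p38 and JNK kinases, had 8.25, 8.10, 14.3 and 13.9 CPM in control and 10.1, 10.6, 16.3 and 19.3 CPM in cold libraries. Libraries 3 and 4 were higher than libraries 1 and 2 in both groups, by more than the difference with cold. It was the one gene among the 100 of 13 feedback genes of ERK and p38, of which 4 had all 4 ratios above 0 and none all 4 below 0, beside 14.8% and 12.2% of all genes. P2ry2, a receptor for extracellular ATP and UTP, had 11.5, 11.5, 13.6 and 11.6 CPM in control and 13.5, 12.9, 15.5 and 14.1 CPM in cold libraries. Rgl1, an exchange factor for Ral, had 38.1, 36.9, 48.3 and 50.3 CPM in control and 42.9, 42.6, 55.8 and 60.0 CPM in cold libraries. The groups overlapped in both genes. Errfi1, a feedback inhibitor of the EGF receptor named after its values were seen, had 153, 151, 251 and 223 CPM in control and 184, 180, 272 and 252 CPM in cold libraries.

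The other signalling genes, named to account for all members, were Dtx4 of the Notch pathway, the survival factor Bcl2a1, the genes Arhgap21, Vav3, Rin2, Cyrib and Rassf8, linked to small GTPases, the actin regulator Wasf1, the phosphatase regulators Ppp1r7 and Ppp1r3d, and Plcl2, Rhbdf2 and Fnta. In Dtx4 the groups stood apart, at 31.2, 31.9, 31.6 and 33.9 CPM in control and 40.4, 37.6, 36.1 and 37.7 CPM in cold libraries. Mean differences of these 13 genes lay between 10.2% for Fnta and 21.1% for Rhbdf2.

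Mitochondria and metabolism gave 13 genes with a median of 18.2% more RNA, mostly at low levels, and 1 of the 13, Mthfd1l, had all 4 ratios past 1.96 counting errors. Lyrm4, named after its values were seen, serves the enzyme that builds iron-sulfur clusters in mitochondria and had 13.4, 14.4, 13.6 and 13.6 CPM in control and 15.8, 15.9, 15.4 and 15.0 CPM in cold libraries. Its groups did not overlap, and it rested on few reads, with a lowest count of 225.

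The group, which was put together after the genes were known, also held genes of lipid metabolism. Arv1, of sterol transport, had 10.1, 8.39, 10.7 and 9.89 CPM in control and 12.6, 10.2, 12.4 and 11.7 CPM in cold libraries. Mfsd2a, a carrier of lysophosphatidylcholine, had 22.6, 22.8, 18.4 and 18.6 CPM in control and 26.4, 26.2, 21.3 and 22.6 CPM in cold libraries. The groups overlapped in both. Gpat3 of triglyceride synthesis, Osbpl10 of the oxysterol-binding family, Pld1, a phospholipase, and Ttc39b were 21.2%, 18.5%, 12.7% and 10.2% higher on average. Atp23, Bphl, Nqo2, the magnesium transport gene Cnnm2 and Mthfd1l, of mitochondrial one-carbon metabolism, complete the group. Among 19 genes of cholesterol synthesis, 0 had all 4 ratios above 0, and 4 had all 4 below 0. Of all genes, 14.8% and 12.2% did so, and nothing is read from these counts.

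Cytoskeleton, junctions, cell surface and vesicles gave 17 genes with a median of 14.1% more RNA. Colec12, a scavenger receptor, had 8.84, 9.34, 14.5 and 14.6 CPM in control and 10.1, 10.9, 16.8 and 16.8 CPM in cold libraries, with ratios between 1.13-fold and 1.15-fold. Epb41l4a, of the band 4.1 family that links membrane to cytoskeleton, had 14.7, 15.6, 13.9 and 13.3 CPM in control and 18.0, 19.0, 15.7 and 16.4 CPM in cold libraries, and its lowest cold library was just above its highest control.

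Others in this group, named to account for every member, were Adam23, Sh3pxd2b of podosomes, Rai14, Rufy1, Cemip2, Ccdc186, Syt7, Muc1, Galnt12, Golga4, Mtus1, Synj1 and Rab11fip1. Adam23 was the least abundant of the 100, at 0.961 TPM, and rested on counts as low as 52. Sh3pxd2b had 173, 166, 123 and 132 CPM in control and 209, 196, 140 and 144 CPM in cold libraries, higher in libraries 1 and 2. Rai14 had 149, 147, 247 and 262 CPM in control and 172, 164, 270 and 292 CPM in cold libraries, higher in libraries 3 and 4. Genes whose main role was not assigned were Gkap1 and Rwdd1 and, named to account for every member, Cfap410, Kbtbd2, Lrrfip1, Lxn, Mfhas1 and Ufsp2. Gkap1 had 3.95, 3.04, 5.14 and 5.64 CPM in control and 4.64, 4.08, 7.24 and 6.44 CPM in cold libraries, and Rwdd1, at 232 TPM, had 112, 106, 105 and 101 CPM in control and 123, 126, 122 and 119 CPM in cold libraries.

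Tpm3, a tropomyosin that coats actin filaments in slow muscle fibres and in non-muscle cells, stood against its list. Of 22 sarcomere genes with enough counts, 21 had all 4 ratios below 0, with a median of −0.80, and Tpm3 was the one with all 4 above 0. Of all genes, 12.2% had all 4 below 0 and 14.8% all 4 above 0. In the fit with the block 21 of the 23 tested fell and 1, Tpm3, was called higher, and without it 3 fell and 0 rose. Beside these counts, 4.07% of all genes fell and 1.26% rose with the block, and 0.072% fell and 0% rose without it. Tpm3 had 239, 242, 251 and 256 CPM in control and 272, 268, 279 and 276 CPM in cold libraries. Among the other tropomyosins, Tpm2 had a mean ratio of −0.87, Tpm1 of −0.14 and Tpm4 of 0.10. In edgeR's fit with the block the adjusted p was 3.81e-08 for Tpm2, 0.0622 for Tpm1 and 0.120 for Tpm4.

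The deposited values also carry a readout that the rule did not use. The count of a gene divided by its TPM is proportional to the length of transcript to which the authors' program assigned its reads, and it changes when reads shift between transcripts of different length. For Tpm3 this length, relative to the median gene and on the log2 scale, was −0.49, −0.48, −0.49 and −0.44 in control and −0.61, −0.62, −0.55 and −0.51 in cold libraries. The groups did not overlap, and the mean difference of cold from control was −0.10. In TPM, which takes this length into account, Tpm3 stood at 186, 188, 202 and 203 in control and at 238, 237, 234 and 224 in cold libraries, a wider difference than in CPM. Lengths that did not overlap between groups were found in 3 of the 100 genes (Mfsd2a, Pld1 and Tpm3), beside 2.04% of all genes, and in Mfsd2a and Pld1 the mean shift was only −0.01. The count of 3 is near the share of all genes, so nothing is read from it, and the length difference of Tpm3 was not tested. Which transcripts were involved was not analysed here.

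**Figure D4:**
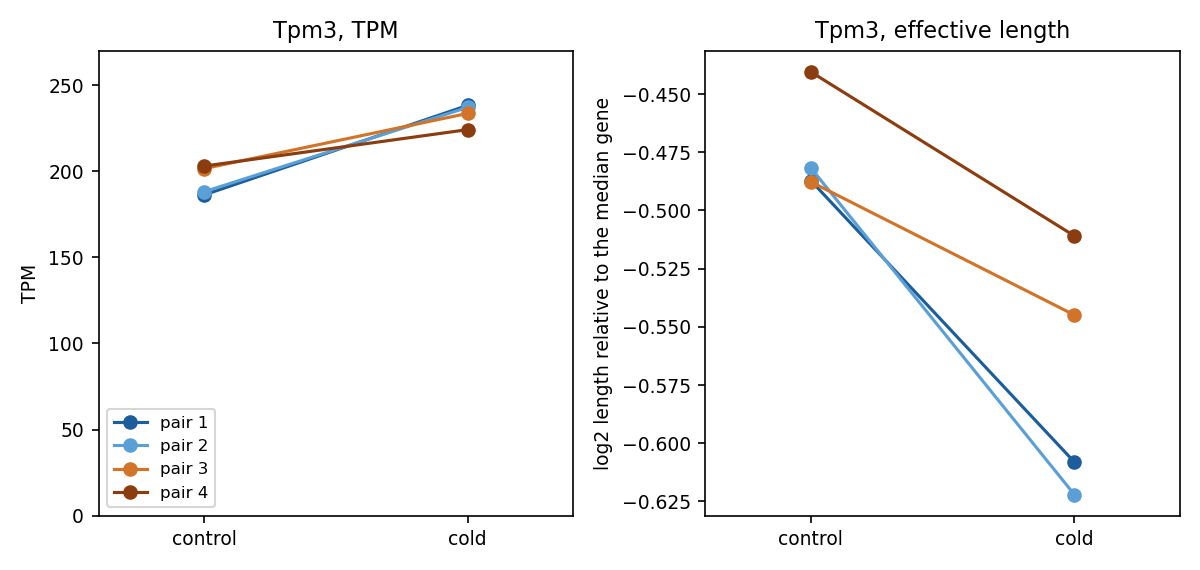
Tpm3 in the 8 libraries. Left, TPM (linear axis from 0). Right, log2 of the assigned transcript length relative to the median gene (linear axis that does not start at 0). Points are libraries, joined by number: TPM goes from 186 to 203 in control to 224 to 238 in cold, and the length from −0.49 to −0.44 down to −0.62 to −0.51.

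Several lists often studied in cold had no gene among the 100. As the 100 are 0.954% of the genes they were drawn from, lists of this size would seldom hold one, and nothing is read from the zeros. The counts with all 4 ratios above 0 and all 4 below 0 stand beside 14.8% and 12.2% of all genes. The lists were 8 cold-inducible and cold-shock-domain genes (3 with all 4 ratios above 0, none below), 14 circadian clock genes (1 and 3), 14 heat shock proteins (2 and 2), 22 genes of the unfolded protein response (2 and 3), 20 p53 targets (5 and 4), 25 antioxidant genes (5 and 4) and 10 iron genes (0 and 3). Rbm3, the best known cold-inducible RNA-binding gene, had mean levels of 582 TPM (control) and 610 TPM (cold), with log2 ratios of −0.09, 0.09, 0.12 and 0.16 in pairs 1 to 4. Its edgeR adjusted p was 0.453 with the block and 0.999 without it. Also without a gene among the 100 were 180 solute carriers, of which 11 had all 4 ratios above 0 and 25 all 4 below 0, and 17 myogenic regulators, of which 3 had all 4 above 0 and 10 all 4 below 0.

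The 100 genes were at low to middling abundance for the most part. Their mean TPM over 8 libraries ran from 0.961 to 492 and had a median of 15.5, against 22.2 for all 10481 genes. At 100 TPM or more stood 14 of them (14.7% of all genes), and under 10 TPM 39 (26.7% of all genes). Summed over the 100 genes, CPM was 5529 to 6200 in control and 6404 to 6895 in cold libraries.

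Libraries also differed by their number, at either temperature. Libraries 1 and 2 were lower than libraries 3 and 4 in both groups for 51 of the 100 genes (44.7% of all genes) and higher in both groups for 31 (31.8% of all genes). In 34 genes the difference between numbers 1 and 2 and numbers 3 and 4 within the control group was larger than the mean cold ratio. Muc1, Rin2, Rai14 and Dusp10 had wide gaps, named after their values were seen, with log2 differences of numbers 1 and 2 from numbers 3 and 4 of −0.88, −0.83, −0.78 and −0.75 in control libraries. In Sh3pxd2b, in contrast, this difference was 0.41. What the numbers stand for is not stated in the labels. They give 3, 4, 5 and 6 days at 37°C for controls 1 to 4, in conflict with the titles.

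Read in the other direction, the same rule gave far larger values. The 100 genes most consistently lower after cold had scores from −1.95 to −0.36, and the median of their mean ratios was −0.86, or 44.9% less RNA. In 97 of these 100 every ratio was beyond 1.96 counting errors (2.31% of all genes), and in 57 all cold libraries were below all controls (2.56% of all genes). Among genes with a name, 2 had a score above 0.2, whereas 186 had a score of that size in the lower direction. At a score of 0.1 the numbers were 121 and 337.

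**Figure D5:**
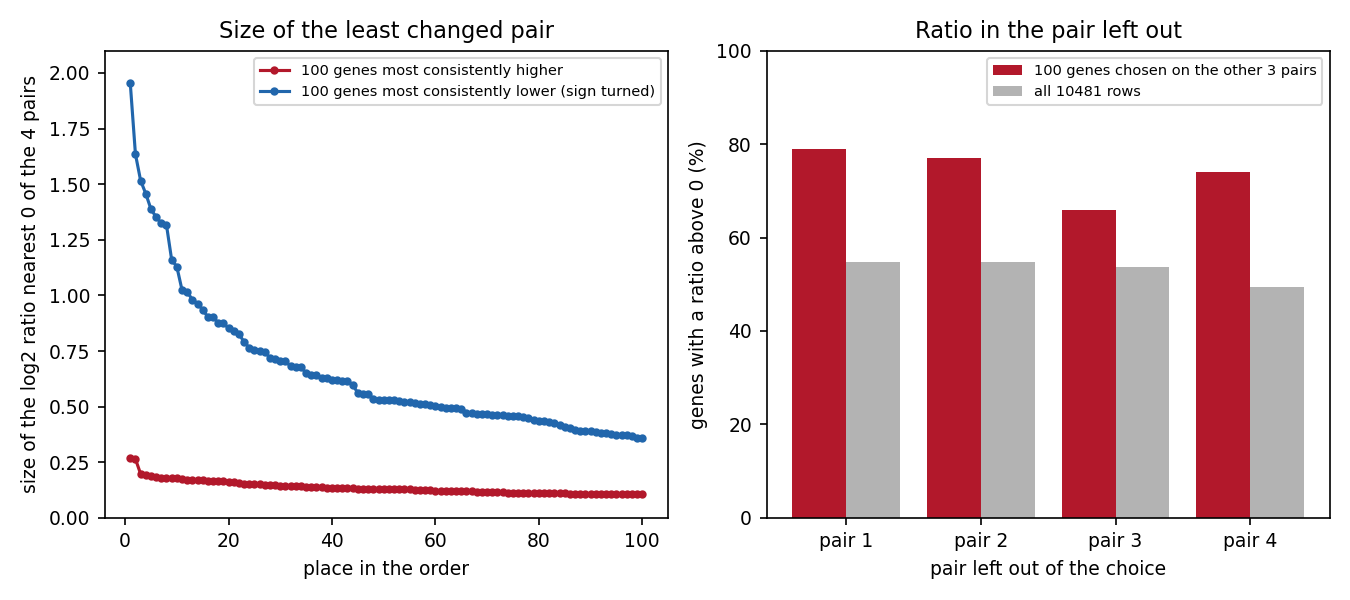
Size and repeat of the differences. Left, size of the ratio nearest 0 (log2, linear axis) for the 100 genes most consistently higher (red) and the 100 most consistently lower (blue, sign turned), in order; the red line stays between 0.11 and 0.27 and the blue one runs from 1.95 to 0.36. Right, the percentage of genes with a ratio above 0 in a pair that was left out of the choice, for 100 genes chosen on the other 3 pairs (red bars, 66% to 79%) and all 10481 genes (grey bars, 49.5% to 54.7%).

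To see how far the choice repeats, the rule was applied to 3 pairs at a time and the 100 genes found were read in the fourth pair. Of 100 genes chosen without pair 1, 79 had a ratio above 0 in pair 1, with a median of 0.13 or 9.33% more RNA, where 54.7% of all genes were above 0. For pair 2 the number was 77, with a median of 0.14 or 10.5% more RNA, and again 54.7% of all genes. For pair 3 it was 66, with a median of 0.06 or 3.92%, against 53.8%, and for pair 4 it was 74, with 0.06 or 4.49%, against 49.5%. The medians in the pairs used for the choice were 0.20, 0.20, 0.23 and 0.22, so the differences were smaller in each pair that had not been used. Of the 100 genes described above, 52, 64, 34 and 34 were chosen again without pair 1, 2, 3 and 4. Genes chosen as lower on 3 pairs were below 0 in the fourth in 100 of 100 cases for each pair, with medians of −1.20, −0.94, −0.55 and −0.74. Libraries of numbers 1 and 2 resembled each other, as did those of numbers 3 and 4, so a pair left out is not a fully separate repeat.

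At the edge of the rule the values ran on without a step. The last genes inside were Osbpl10, Rab11fip1 and Snrpd3 with scores of 0.108, 0.108 and 0.107, and the first outside were Cstf2, Trim16 and Lyn with 0.107, 0.107 and 0.106. No sequences are shown, because no genome or sequence table of the hamster was used here.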

How the data were processed

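RNA was sequenced as paired-end reads of 150 bp from 4 control and 4 cold SC libraries. The authors deposited, for each gene and library, an expected count (estimated, not normalized), a TPM value and a normalized count, a signal scaled by the authors with a factor per library. HISAT and HISAT2 are named in the submitters' processing notes. The counting program and genome build are not given in the sources used here, so hamster RefSeq annotation was used for gene names only, matching 100 of 100 genes.

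Expected counts were scaled to CPM by column totals. The counting error of a ratio was the square root of the sum of the inverse counts, divided by ln 2. For tests over all genes, expected counts were rounded, filtered with filterByExpr, TMM-normalized and fitted with edgeR 4.0.16 in R 4.3.3 (quasi-likelihood F test, Benjamini-Hochberg adjustment over 12506 genes), with DESeq2 1.42.0 and limma 3.58.1 as alternatives. On simulated counts with 200 of 12432 genes changed, the fit recovered 200, with 13 false calls, and with the block 200, with 13 false calls. Groups came from sample titles. Control and cold libraries share the numbers 1 to 4. The correlations of deviations from the group means, across genes, were 0.69, 0.72, 0.75 and 0.72 for libraries of the same number, 0.46 to 0.69 for other numbers on the same side of the split between 1 and 2 and 3 and 4, and −0.68 to −0.60 otherwise. Every same-number correlation passed 0.1, so libraries of one number were treated as pairs in a further fit with a block.

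The 100 genes and the gene lists were chosen with earlier results of these data known. Genes are named by this rule: the 20 highest scores, the 10 highest mean TPM, each gene on a listed pathway, and the 3 on each side of the limit; others are marked. Single values of 3 of the 100 genes are not reported here. Sequence features of promoters and proteins were planned and not analysed here. Alternatives were other scalings, filters, pseudocounts and tests, the block, and leaving out each library in turn.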

Additional observations from a re-analysis of the deposited data

Results flagged for a closer look

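In each of 194 groups of 4 libraries (97 of the 100 genes in control and in cold), the library farthest from the others was compared with Dixon's critical value for 4 values. This marked 7 groups, where chance alone would mark about 9.7. Control replicate 4 was low for Ube2c, at 72.8 CPM against 79.3 to 80.5 in the other controls. Control replicate 4 was high for Rab11fip1, at 48.6 CPM against 41.8 to 42.0. Control replicate 3 was high for P2ry2, at 13.6 CPM against 11.5 to 11.6, for Osbpl10, at 10.5 CPM against 8.39 to 8.73, and for Galnt12, at 22.0 CPM against 14.7 to 15.4. Galnt12, a glycosyltransferase of mucin-type O-glycans, was also high in cold replicate 3, at 23.8 CPM against 16.5 to 17.6, so that pair 3 stood apart at both temperatures. Cold replicate 4 was low for Plcl2, at 20.2 CPM against 23.9 to 24.5.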

How the results depend on the processing

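Which genes make up the 100 depended on the settings. Of the 100 genes, 25 were chosen by the median of the 4 ratios, and 52, 64, 34 and 34 when replicate 1, 2, 3 or 4 was left out. TPM in place of CPM kept 70 and the other settings 67 to 97, and 36 remained when every ratio had to exceed its counting interval, a setting added after seeing the data. By the rule all 100 had 4 ratios above 0 by column totals, as they did by TMM-scaled totals and the authors' normalized counts, and 99 did by TPM (not Mtus1). All 1700 fitted fold changes of these genes under 17 alternative fits were above 0, which the choice of genes fixes and which is no sign of stability, with medians of 0.19 to 0.22 (0.22 without control replicate 3). The block, which follows the pairing of the numbers, moved calls most: 5 genes were higher and 101 lower with the fold threshold, and 158 and 509 without it, against 0, 5, 0 and 9 unblocked. DESeq2 called 68 lower with the fold threshold, and 133 lower and 3 higher without it. Genes called lower with and without the fold threshold numbered 8 and 14 by library totals, 15 and 25 without a filter, and 3 and 4 by limma on TPM with either pseudocount. They numbered 3 with the fold threshold for genes with 50 counts in every library, and 5 without it by unfiltered limma. Leaving out 1 library gave 0 to 33 lower with the fold threshold, 0 to 45 lower without it, and 0 to 1 higher. The highest of each came without control replicate 3, and 0 without control 4 or cold 1, 3 or 4. The causes were not tested. Depth limits the 12 genes with under 100 counts in a library.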
